A study of Homo sapiens with 12 samples.

Results

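The enzymes that make and balance the building blocks of DNA were followed across a test of a Wee1 inhibitor and an Hsp90 inhibitor, alone and together. They were taken as 9 named genes, RRM1, RRM2, TYMS, DTYMK, TK1, DCK, DUT, DCTPP1 and SAMHD1, out of 19775 genes with a single symbol on the array. These genes had 25 of the 54675 probe sets. The probe set with the highest mean signal stood for each gene, and calls that differ on its other probe sets are given after the results by gene.

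RNA of 12 samples labelled PC3, a human prostate cancer cell line, was measured on Affymetrix arrays in 4 groups of 3. The groups were both drugs, Wee1 inhibitor II alone at 2.5 µM, 17-AAG alone at 40 nM, and control, which the labels call untreated and the protocol says received vehicle. Wee1 is the kinase that restrains the cyclin-dependent kinases, and 17-AAG blocks the chaperone Hsp90. Per the protocol, 17-AAG came 24 h after Wee1 inhibitor II, and cells were taken 48 h after 17-AAG. The submitters set control replicate 2 aside for weak signal, so 11 arrays were compared, 2 of control and 3 of each drug group. All values are signals on a linear scale or log2 changes of them, in a fit across all genes with limma. A change counted as higher or lower when its Benjamini-Hochberg adjusted p over the 19775 genes was under 0.05.

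Cells that copy their DNA must hold a steady, balanced supply of deoxynucleoside triphosphates (dNTPs). Ribonucleotide reductase, built from RRM1 and RRM2, turns ribonucleotides into deoxyribonucleotides, TYMS and DTYMK supply thymidylate, and TK1 and DCK reclaim nucleosides from outside the cell or from broken DNA. DUT, DCTPP1 and SAMHD1 break dNTPs down. DUT thereby keeps uracil out of DNA and supplies the substrate of TYMS, and SAMHD1 keeps the pools small outside S phase. Several of these genes are transcribed periodically with S phase under E2F factors and promoters with CCAAT boxes.

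The promoter windows of 5 of the 9 genes are printed because they span the genes' responses, from RRM2, which fell furthest, to SAMHD1, which did not fall with both drugs. Each window runs from 250 bases before to 50 bases after a transcription start in RefSeq, on build GRCh38.p14, 5′ to 3′ on the gene's strand. Capitals mark the words searched for on both strands, which were CCAAT, the E2F words TTTCCCGC, TTTCGCGC, TTTGCCGC and TTTGGCGC, and TTTGAA, a core of the cell cycle homology region. The windows lie at chr2:10122489-10122788 on the + strand for RRM2, chr17:78187003-78187302 on the − strand for TK1, chr18:657403-657702 on the + strand for TYMS, chr15:48331947-48332246 on the + strand for DUT and chr20:36951659-36951958 on the − strand for SAMHD1.
RRM2: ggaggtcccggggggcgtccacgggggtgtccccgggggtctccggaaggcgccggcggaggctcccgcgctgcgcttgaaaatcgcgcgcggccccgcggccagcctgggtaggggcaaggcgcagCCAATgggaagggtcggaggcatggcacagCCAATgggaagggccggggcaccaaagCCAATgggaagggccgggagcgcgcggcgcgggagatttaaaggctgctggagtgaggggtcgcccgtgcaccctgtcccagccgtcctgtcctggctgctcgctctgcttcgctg
TK1: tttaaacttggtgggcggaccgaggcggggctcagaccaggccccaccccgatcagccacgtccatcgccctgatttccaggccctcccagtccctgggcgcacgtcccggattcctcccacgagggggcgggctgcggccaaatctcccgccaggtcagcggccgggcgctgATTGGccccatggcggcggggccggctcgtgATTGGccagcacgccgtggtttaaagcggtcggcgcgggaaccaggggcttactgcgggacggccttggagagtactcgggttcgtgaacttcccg
TYMS: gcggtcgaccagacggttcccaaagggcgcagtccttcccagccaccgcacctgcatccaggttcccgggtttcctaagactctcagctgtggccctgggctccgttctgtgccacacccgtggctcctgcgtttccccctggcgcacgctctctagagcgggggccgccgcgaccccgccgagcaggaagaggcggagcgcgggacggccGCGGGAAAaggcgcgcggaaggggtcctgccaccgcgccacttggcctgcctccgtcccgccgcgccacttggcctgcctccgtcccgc
DUT: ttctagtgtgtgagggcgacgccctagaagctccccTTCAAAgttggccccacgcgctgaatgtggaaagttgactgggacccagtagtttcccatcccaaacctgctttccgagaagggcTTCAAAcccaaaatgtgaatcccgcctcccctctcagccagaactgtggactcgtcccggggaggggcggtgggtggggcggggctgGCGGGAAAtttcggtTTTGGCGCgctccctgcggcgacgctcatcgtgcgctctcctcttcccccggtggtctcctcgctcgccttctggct
SAMHD1: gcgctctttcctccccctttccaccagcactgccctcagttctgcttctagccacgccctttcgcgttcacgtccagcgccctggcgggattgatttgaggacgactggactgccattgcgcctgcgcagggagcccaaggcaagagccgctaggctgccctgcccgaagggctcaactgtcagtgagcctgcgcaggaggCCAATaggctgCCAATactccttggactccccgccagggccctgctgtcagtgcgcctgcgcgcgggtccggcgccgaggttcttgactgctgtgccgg

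The RRM2 window held 3 CCAAT boxes, a number reached by 3.26% of all 34943 distinct RefSeq windows of the same length. The window of a second, upstream RRM2 start held 1. The TK1 window held 2, as did those of DTYMK and SAMHD1, and 10.8% of all windows held at least 2. The TYMS and DCK windows held 1 E2F word each, and 3.30% of all windows held at least 1. The RRM1 window held 1 CCAAT box and 1 copy of TTTGAA, where 34.6% and 15.2% of all windows held at least 1. The DUT window, which belongs to 1 of its 4 annotated starts, held 2 E2F words, against 0.143% of all windows, and 2 copies of TTTGAA. The other 3 DUT starts, the DCTPP1 window and the upstream TK1 window had no match to any of these words. SAMHD1 shared its CCAAT count with TK1 and DTYMK but not their response, and these matches describe letters only.

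The arrays compared resembled each other, and their labelled identity did not match the markers. Pearson's r of log2 signals was 0.924 to 0.936 between replicates of a group, and 0.825 to 0.833 between control replicate 2 and the other arrays. EPCAM, an epithelial surface protein of PC3 cells, had signals of 5.33 to 26.2 on the 11 arrays, and CTNNA1, a catenin gene that PC3 cells lack, had 2559 to 5040. Control replicate 2 showed the opposite for these genes, with 1096 for EPCAM and 1.57 for CTNNA1. The pigment cell gene MLANA had 2.67 there, against 2865 to 9916 on the 11 arrays. KRT8, KRT18 and HOXB13 were also higher there, at 615, 2238 and 2087, against at most 45.5, 650 and 11.3. The other epithelial markers, CDH1 and KRT19, were not, at 5.55 and 1.58 against at most 13.2 and 7.81. All 6 pigment cell markers were above 100 on all 11 arrays, against 1 of 6 epithelial and prostate markers, 1 of 6 fibroblast markers and 0 of 5 blood cell markers. Summed pigment cell markers ranged from 46545 to 48136 with both drugs, 25705 to 28256 with Wee1 inhibitor II, 39321 to 44640 with 17-AAG and 31680.2 to 33240.3 in control. The gap between the 3-prime and 5-prime ACTB probe sets, a sign of RNA quality, was 0.96 ± 0.05 with both drugs, 0.68 ± 0.09 with Wee1 inhibitor II, 0.96 ± 0.08 with 17-AAG and 0.69 ± 0.03 in control (log2, SD). DNAJB1, a co-chaperone gene that Hsp90 inhibitors are known to raise, had 480, 564 and 490 on the arrays labelled 17-AAG, against 1197 and 1186 in control. It had 685 to 754 with Wee1 inhibitor II and 874 to 908 with both drugs. HSPH1, another heat shock gene, had 1718 to 2263 with 17-AAG, against 3137 and 3292 in control. HSP90AA1, a gene of Hsp90 itself, overlapped, with 9209 to 11305 with 17-AAG and 10929 and 11120 in control. The part of these differences in the results on the 9 enzymes was not tested.

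With both drugs, 7 of the 9 genes fell relative to control and 0 rose, also at an unadjusted p under 0.05. Of all genes, 28.0% passed the test in this comparison, with 11.3% lower and 16.7% higher. RRM2 fell furthest, to 7.06% of its control signal, followed by TYMS at 17.4% and TK1 at 23.8%. DTYMK stood at 26.8%, RRM1 at 30.8%, DCTPP1 at 47.0% and DCK at 48.5%. The median log2 change of the 9 genes was −1.70, beside 0.11 for all 19775 genes. DUT and SAMHD1 did not pass. In bulk RNA, fewer cells that express a gene and less of its RNA per cell cannot be told apart.

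Each drug alone gave a smaller median change. With Wee1 inhibitor II alone, 7 fell relative to control and 0 rose, also at an unadjusted p under 0.05, where 24.9% of all genes passed, 10.3% as lower and 14.5% as higher. The median of the 9 was −0.51, beside 0.12 for all genes. With 17-AAG alone, 4 fell and 0 rose, with 6 lower and 0 higher at an unadjusted p under 0.05, where 16.7% of all genes passed, 6.80% as lower and 9.93% as higher. The median of the 9 was −0.36, beside 0.01 for all genes. All 3 comparisons share the same 2 control arrays. Control replicate 2, labelled as weak in signal, differed from the 11 arrays in many of the cell type markers. In the deposited values its median signal of 20.8 lay within the 17.7 to 23.1 of the 11 arrays. The deposited arrays share a common scale, with equal trimmed means, so this median cannot show how strong the original signal was. With control replicate 2 put back, 0 of the 9 passed for Wee1 inhibitor II and 0 for 17-AAG in limma. At an unadjusted p under 0.05 these were 1 and 2. For both drugs 6 passed, with DCTPP1 at −0.78 as the call lost. The share of all genes that passed in that fit is not given here. The lost calls can thus not be told from fewer calls across all genes.

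**Figure D1:**
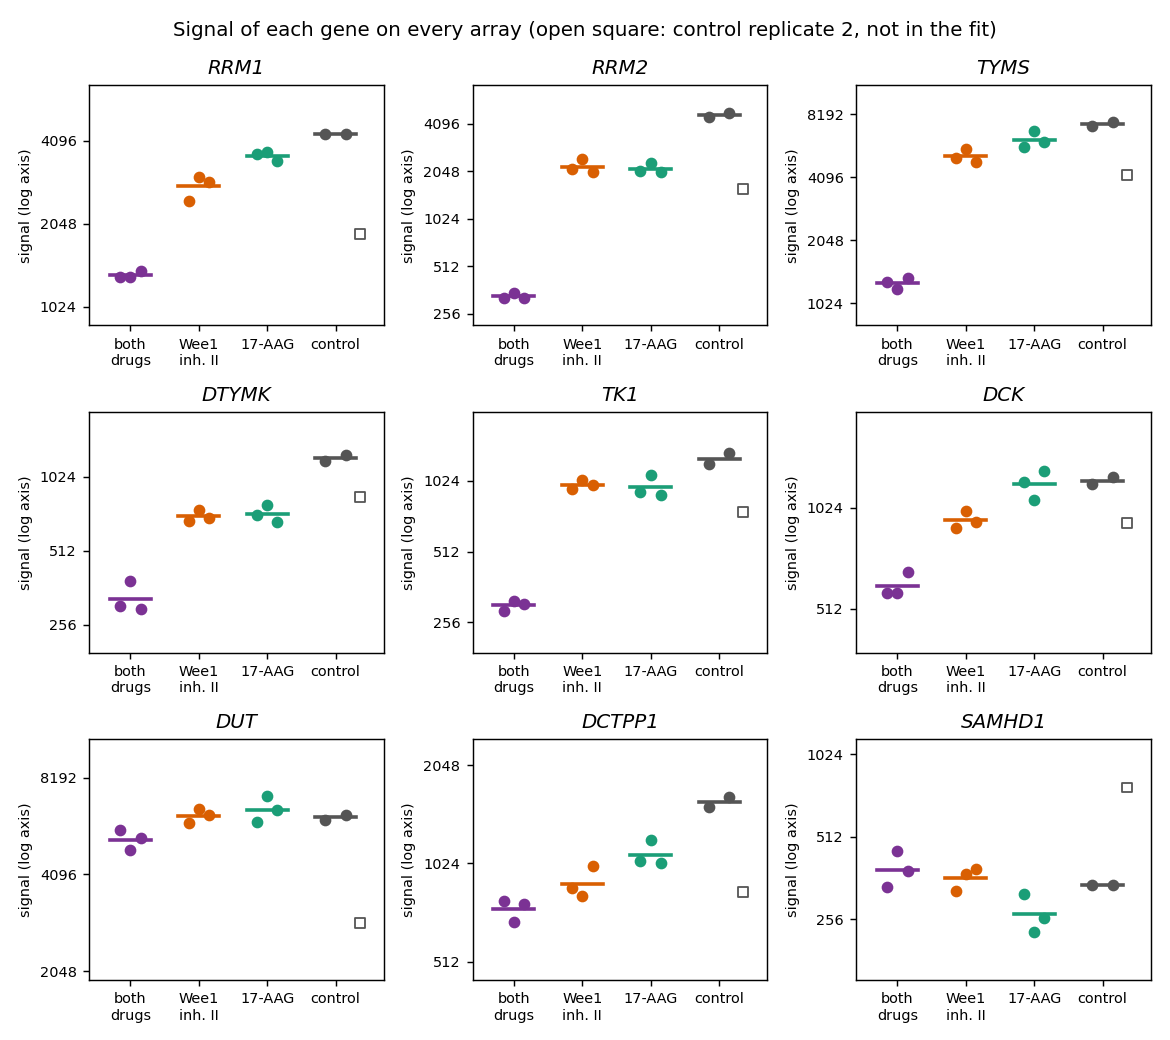
Signal of each gene's main probe set (log axis) on every array, by group, with a line at the geometric mean of each group's arrays in the fit. RRM2 lies between 323 and 343 on the 3 arrays with both drugs and between 4522 and 4814 on the 2 control arrays. Open squares are control replicate 2, which was not in the fit.

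The messages of both subunits of ribonucleotide reductase fell with the drug pair, with the larger log2 change for the small subunit. RRM2 encodes the small subunit, which holds the radical that starts the reaction and is made and destroyed with each cell cycle. It lies on chromosome 2 from 10122568 to 10211010. RRM2 had signals of 323, 343 and 323 with both drugs, 2105, 2462 and 2026 with Wee1 inhibitor II, 2055, 2296 and 2019.9 with 17-AAG, and 4522 and 4814 in control. The single-drug groups overlapped each other and lay below both control arrays, and the arrays with both drugs lay far below all others. The log2 change against control was −3.82 ± 0.11 with both drugs (SE, adjusted p = 5.54e-06, n = 3 against 2, limma), a signal 14.2-fold lower. That was the smallest p among all 19775 genes and the 8th lowest log2 change. The changes with Wee1 inhibitor II (−1.09 ± 0.11, adjusted p = 0.000334) and 17-AAG (−1.14 ± 0.11, adjusted p = 0.000741) were alike in size. Their difference, Wee1 inhibitor II over 17-AAG, was 0.05 ± 0.10, with a 95% interval from −0.18 to 0.27 (adjusted p = 0.801).

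RRM1 encodes the large subunit, which carries the catalytic and regulatory sites and is a longer-lived protein. The gene lies on chromosome 11 from 4094685 to 4138932. Its signals were 1319, 1316 and 1379 with both drugs, 2483, 3037 and 2912 with Wee1 inhibitor II, 3654, 3725 and 3450.5 with 17-AAG, and 4353 and 4345 in control. The 4 groups did not overlap. RRM1 fell by 1.70 ± 0.10 on the log2 scale with both drugs (adjusted p = 2.28e-05) and by 0.64 ± 0.10 with Wee1 inhibitor II (adjusted p = 0.00259). The change with 17-AAG was −0.27 ± 0.10 and did not pass (adjusted p = 0.115). RRM1 was lower with Wee1 inhibitor II than with 17-AAG by 0.37 ± 0.09 (adjusted p = 0.0243), a call lost in 8 of 21 other settings. Among them were the fits without replicate 1 of Wee1 inhibitor II (−0.28), replicate 1 of 17-AAG (−0.36) or replicate 2 of 17-AAG (−0.34).

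Within each array, the log2 signal of RRM2 minus that of RRM1, set to a mean of 0 in control, traced the imbalance between the subunits. It was −2.13, −2.04 and −2.20 with both drugs, −0.34, −0.40 and −0.63 with Wee1 inhibitor II, −0.93, −0.80 and −0.87 with 17-AAG, and −0.05 and 0.05 in control. On the main probe sets no pair of groups overlapped. The arrays with 17-AAG lay below those with Wee1 inhibitor II, a difference that was not tested. With the second probe sets, 201890_at of RRM2 and 201476_s_at of RRM1, the arrays of the single drugs overlapped in this value. A two-sided exact permutation test gave p = 0.1 for the pair of drugs against either single drug, with 3 arrays each, and 0.1 is the smallest value those group sizes allow. The 5 comparisons tested this way all stood at that limit of 0.1. Because 2 different probe sets are involved, only the shift of this difference between groups can be read, not which subunit was the more abundant.

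The thymidylate branch came next in the size of its fall with both drugs. TYMS, thymidylate synthase, methylates dUMP to dTMP and is the target of fluorouracil, and its gene lies on chromosome 18 from 657653 to 673578. Its signals were 1287, 1201 and 1345 with both drugs, 5059, 5604 and 4819.8 with Wee1 inhibitor II, 5674, 6814 and 6029.7 with 17-AAG, and 7182 and 7519 in control. The arrays with both drugs lay far below all others, while the single-drug groups lay close to each other, without overlap, and below control. With both drugs TYMS was 5.76-fold lower (log2 −2.53 ± 0.11, adjusted p = 9.46e-06), and with Wee1 inhibitor II it fell by 0.51 ± 0.11 (adjusted p = 0.0106). The change with 17-AAG was −0.26 ± 0.11 (adjusted p = 0.171), but TYMS probe set 1554696_s_at was lower there by 0.58 ± 0.13 (adjusted p = 0.0377 in a fit of all 54613 probe sets). The call for Wee1 inhibitor II alone was lost in 3 of 21 other settings, 1 of them the fit without control replicate 3 (−0.48).

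DTYMK, thymidylate kinase, adds the second phosphate to dTMP whether it comes from TYMS or from TK1. The gene lies on chromosome 2 from 241675747 to 241686815. DTYMK signals were 304, 386 and 295 with both drugs, 673, 749 and 695 with Wee1 inhibitor II, 716, 783 and 670 with 17-AAG, and 1180.2 and 1248 in control. The single-drug groups overlapped fully and stood between the other groups. DTYMK fell by 1.90 ± 0.13 with both drugs (adjusted p = 4.34e-05), by 0.78 ± 0.13 with Wee1 inhibitor II (adjusted p = 0.00367) and by 0.75 ± 0.13 with 17-AAG (adjusted p = 0.00761). The call for 17-AAG alone was lost in 4 of 21 other settings, 1 of them the fit without control replicate 3 (−0.71). Wee1 inhibitor II differed from 17-AAG by −0.03 ± 0.12, with a 95% interval from −0.31 to 0.24.

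TK1, the cytosolic thymidine kinase that appears in S phase and is degraded after mitosis, feeds salvaged thymidine into the same pool. The gene lies on chromosome 17 from 78174079 to 78187204. TK1 had signals of 285, 316 and 307 with both drugs, 945, 1027 and 982 with Wee1 inhibitor II, 918, 1081.5 and 889 with 17-AAG, and 1206 and 1338 in control. The groups given 1 drug overlapped each other and lay just below control, and the arrays with both drugs lay far below them. The gene was 4.20-fold lower with both drugs (log2 −2.07 ± 0.11, adjusted p = 1.55e-05). The calls for Wee1 inhibitor II (−0.37 ± 0.11, adjusted p = 0.0416) and 17-AAG (−0.41 ± 0.11, adjusted p = 0.039) stood near the threshold. Under 21 other settings the Wee1 inhibitor II call was lost in 14 and the 17-AAG call in 15, including 9 and 10 of the 11 settings that left out 1 array, with values of −0.44 to −0.29 and −0.49 to −0.33.

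DCK, the deoxycytidine kinase that also activates cytarabine and gemcitabine, is the salvage enzyme that is less tied to S phase. It lies on chromosome 4 from 70993649 to 71030914. DCK signals were 568, 570.4 and 657 with both drugs, 891, 999 and 927 with Wee1 inhibitor II, 1222, 1079 and 1315 with 17-AAG, and 1204 and 1260.5 in control. The arrays with 17-AAG alone spanned the control arrays, those with Wee1 inhibitor II lay below them, and those with both drugs were lowest. DCK fell by 1.04 ± 0.11 with both drugs (adjusted p = 0.000321). The change with 17-AAG was −0.04 ± 0.11, with a 95% interval from −0.30 to 0.23 (adjusted p = 0.886). With Wee1 inhibitor II it was −0.39 ± 0.11 (adjusted p = 0.0381), a call lost in 13 of 21 other settings, including 7 of the 11 that left out 1 array (−0.44 to −0.36). DCK was also lower with Wee1 inhibitor II than with 17-AAG, by 0.36 ± 0.10 (adjusted p = 0.0449), a call lost in 15 of 21 settings, 9 of them on leaving out 1 array (−0.43 to −0.29).

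The enzymes that break dNTPs down did not move together. DCTPP1 hydrolyses dCTP and its modified forms and lies on chromosome 16 from 30423615 to 30430030. Its signals were 786, 676 and 769 with both drugs, 862, 811 and 1004 with Wee1 inhibitor II, 1043, 1206 and 1026 with 17-AAG, and 1522 and 1639 in control. All drug groups lay below control without overlap with each other. DCTPP1 fell by 1.09 ± 0.13 with both drugs (adjusted p = 0.000438), by 0.83 ± 0.13 with Wee1 inhibitor II (adjusted p = 0.00227) and by 0.54 ± 0.13 with 17-AAG (adjusted p = 0.0236). The 17-AAG call was lost in 9 of 21 other settings. Among them were the fits without control replicate 1 (−0.59), control replicate 3 (−0.48), or replicate 1 (−0.51) or 3 (−0.49) of 17-AAG. Another was the limma fit of all probe sets (adjusted p = 0.0641). Both drugs differed from Wee1 inhibitor II alone by −0.26 ± 0.11, which did not pass (adjusted p = 0.196).

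DUT, the dUTPase that turns dUTP into dUMP and so both removes a mutagenic precursor and feeds TYMS, lies on chromosome 15 from 48331095 to 48343373. Its main probe set had 5623, 4867 and 5315 with both drugs, 5899.6, 6530.4 and 6269 with Wee1 inhibitor II, 5940.1, 7178 and 6492 with 17-AAG, and 6054 and 6282 in control. Arrays with both drugs lay below all others, by a margin too small for the test. The log2 change with both drugs was −0.23 ± 0.11, with a 95% interval from −0.48 to 0.02 (adjusted p = 0.166). This probe set is of the kind whose probes can also match other transcripts, and the other DUT probe sets gave different values. Probe set 209932_s_at had 3905, 3854 and 3794 with both drugs against 5092 and 5879 in control, and 208955_at had 248, 184 and 232 with both drugs against 546 and 588 in control. In a fit of all 54613 probe sets their log2 changes were −0.51 ± 0.12 (adjusted p = 0.0218) and −1.37 ± 0.15 (adjusted p = 0.000746), and both passed. Probe set 208955_at was also lower with both drugs than with 17-AAG alone, by 1.58 ± 0.13 (adjusted p = 0.000517).

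SAMHD1, a dNTP triphosphohydrolase that empties the pools of resting cells and is known for restricting retroviruses, was the only gene of the 9 with a rise in any comparison. The gene lies on chromosome 20 from 36889773 to 36951708. SAMHD1 signals were 337, 455 and 384 with both drugs, 325, 373 and 392 with Wee1 inhibitor II, 317, 231 and 260 with 17-AAG, and 340.1 and 343 in control. The arrays with 17-AAG alone were the lowest, and the other 3 groups overlapped. Against control the changes did not pass, at 0.19 ± 0.17 with both drugs (95% interval −0.20 to 0.58), 0.09 ± 0.17 with Wee1 inhibitor II and −0.36 ± 0.17 with 17-AAG. With both drugs it was higher than with 17-AAG alone by 0.54 ± 0.15 (adjusted p = 0.04), a call lost in 13 of 21 other settings, 8 of them on leaving out 1 array (0.43 to 0.67). In the fit of all probe sets, 3 of its 4 probe sets with a mean signal of at least 100 were higher with both drugs than with 17-AAG, namely 234987_at by 0.84 ± 0.12, 235964_x_at by 1.08 ± 0.17 and 204502_at by 0.66 ± 0.12, with adjusted p of 0.00411, 0.0064 and 0.0137. The main probe set gave 0.54 ± 0.16 there (adjusted p = 0.0788).

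**Figure D2:**
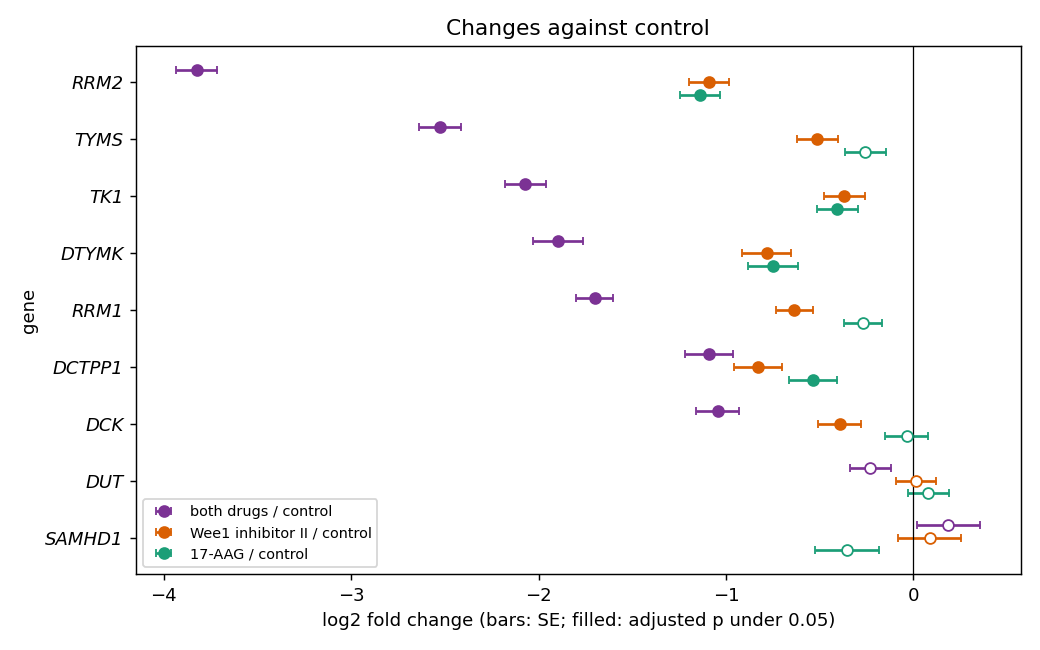
Log2 change of each gene against control, for both drugs, Wee1 inhibitor II alone and 17-AAG alone, with SE bars and filled points at an adjusted p under 0.05. RRM2 stands at −3.82 with both drugs and at −1.09 and −1.14 with the single drugs, while DUT and SAMHD1 have open points in all 3 comparisons.

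The size order of the changes with both drugs was not fully resolved. RRM2 stood apart from TYMS, and TYMS from TK1, by more than their errors. TK1 and DTYMK differed by 0.17 with a standard error of 0.17, and DTYMK and RRM1 by 0.20 with 0.17. DCTPP1 and DCK differed by 0.05 with an error of 0.17.

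The pair of drugs was next set against each drug alone, which asks what the second drug added. Relative to 17-AAG alone, 7 of the 9 genes were lower with both drugs and 1 was higher, where 19.3% of all genes passed, 8.43% as lower and 10.9% as higher. RRM2 was lower by 2.69 ± 0.10 (adjusted p = 7.25e-06), TYMS by 2.27 ± 0.10 (adjusted p = 1.27e-05) and TK1 by 1.67 ± 0.10 (adjusted p = 4.14e-05). RRM1 differed by −1.43 ± 0.09, DTYMK by −1.15 ± 0.12, DCK by −1.01 ± 0.10 and DCTPP1 by −0.55 ± 0.11, all past the threshold. Relative to Wee1 inhibitor II alone, 6 were lower and 0 higher, with 7 and 0 at an unadjusted p under 0.05, where 14.1% of all genes passed, 6.84% as lower and 7.27% as higher. RRM2 was lower there by 2.73 ± 0.10 (adjusted p = 5.84e-06), TYMS by 2.01 ± 0.10 and TK1 by 1.70 ± 0.10. The medians of the 9 genes were −1.15 against 17-AAG and −1.07 against Wee1 inhibitor II, beside 0.10 and 0.00 for all genes.

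Between the single drugs, 2 of the 9 genes differed, RRM1 and DCK, both lower with Wee1 inhibitor II than with 17-AAG, where 18.7% of all genes passed, 8.52% as lower and 10.2% as higher. A count of 2 in 9 lies near that background. The other RRM1 probe set gave −0.15 ± 0.14 (adjusted p = 0.567). In the fit of all probe sets neither gene passed on its main probe set, whereas SAMHD1 was higher with Wee1 inhibitor II than with 17-AAG on 3 of its 4 brighter probe sets, by 0.68 ± 0.12 on 234987_at (adjusted p = 0.00931), 0.75 ± 0.17 on 235964_x_at (adjusted p = 0.0271) and 0.48 ± 0.12 on 204502_at (adjusted p = 0.0453). DUT probe set 208955_at was lower there by 0.80 ± 0.13 (adjusted p = 0.00825). In the fit by gene, leaving out Wee1 inhibitor II replicate 1 left 0 in limma, with 3 at an unadjusted p under 0.05.

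Whether the drugs together did more than the sum of their single log2 changes was tested by their interaction. It passed for 5 of the 9 genes, all with a further fall, and for 0 as a rise, with 5 and 0 at an unadjusted p under 0.05, where 11.8% of all genes passed, 6.97% as negative and 4.82% as positive. TYMS had the most negative value of the 9 (−1.76 ± 0.15, adjusted p = 0.000868): the single changes sum to −0.77, and −2.53 was measured. RRM2 followed at −1.59 ± 0.15 (adjusted p = 0.00111), with −2.23 from the sum and −3.82 measured. For TK1 the interaction was −1.30 ± 0.15 (adjusted p = 0.00199) and for RRM1 −0.80 ± 0.13 (adjusted p = 0.0087). With control replicate 2 put back, which differed from the other 11 arrays in many cell type markers, the interaction passed for TYMS alone, at −2.03. RRM2 (−2.11), TK1 (−1.55) and RRM1 (−1.20) then lost the call. With each array centred on its median, RRM1 lost it as well (−0.77, adjusted p = 0.052).

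On the scale of signal, the sum would leave TYMS at 58.7% of control and 17.4% was measured, TK1 at 58.5% and 23.8% was measured, and RRM2 at 21.3% and 7.06% was measured. DCK had an interaction of −0.61 ± 0.15 (adjusted p = 0.0382), a call lost in 14 of 20 other settings, 9 of them on leaving out 1 array (−0.69 to −0.55). For DTYMK the interaction did not pass, at −0.36 ± 0.18 with a 95% interval from −0.78 to 0.05 (adjusted p = 0.256). The sum would leave DTYMK at 34.5% of control and 26.8% was measured. DCTPP1 was the one falling gene with an interaction above 0, at 0.28 ± 0.17 (adjusted p = 0.38), with −1.37 from the sum and −1.09 measured. The interactions of DUT (−0.32 ± 0.14) and SAMHD1 (0.46 ± 0.23) did not pass either, though DUT's probe set 208955_at did (−0.98 ± 0.20, adjusted p = 0.0378 in the fit of all probe sets).

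**Figure D3:**
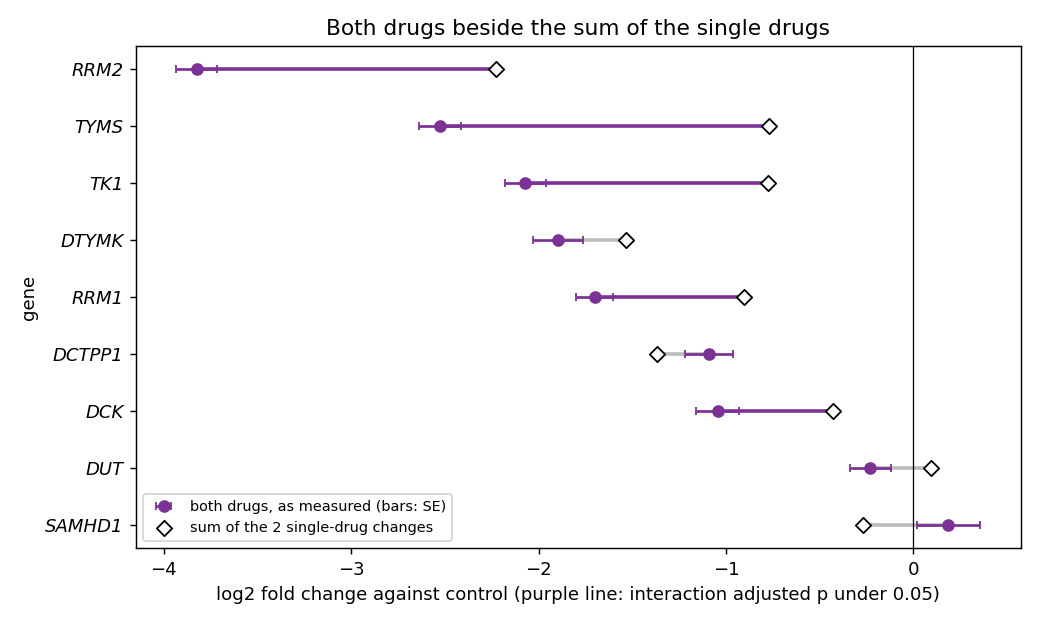
Measured log2 change with both drugs against control (filled circles, SE bars) beside the sum of the 2 single-drug changes (open diamonds), with a purple line where the interaction passed. The gap is widest for TYMS, at −2.53 measured and −0.77 summed, and runs the other way for DCTPP1, at −1.09 measured and −1.37 summed.

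Several genes gave the same calls from their other bright probe sets, and others did not. Of the 25 probe sets, 19 had a mean signal of at least 100. With both drugs against control, in the fit of all probe sets, the second RRM2 probe set stood at −3.72 ± 0.13, beside −3.82 for the main one, the second TK1 probe set at −2.08 ± 0.21, the second DTYMK probe set at −2.02 ± 0.16 and the second RRM1 probe set at −1.81 ± 0.15. TYMS differed more, at −3.34 ± 0.13 on 1554696_s_at (adjusted p = 4.4e-05) and −2.53 ± 0.13 on the brighter main probe set. In that fit the second RRM2, TK1 and DTYMK probe sets had the same calls as the main ones in all 7 comparisons. The second RRM1 probe set differed in the interaction alone, at −0.69 ± 0.20 (adjusted p = 0.115). DUT probe set 208955_at was also lower with Wee1 inhibitor II than in control by 0.60 ± 0.15 (adjusted p = 0.0342) and lower with both drugs than with Wee1 inhibitor II by 0.77 ± 0.13 (adjusted p = 0.0121). DUT probe set 209932_s_at was lower with both drugs than with Wee1 inhibitor II by 0.53 ± 0.11 (adjusted p = 0.0225) and than with 17-AAG by 0.61 ± 0.11 (adjusted p = 0.0107). The 3 dim DTYMK probe sets, with means below 100, did not pass, with changes of −0.47, −0.18 and 2.48. With all DTYMK probe sets averaged, its change with both drugs was −0.42 and did not pass (adjusted p = 0.452).

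**Figure D4:**
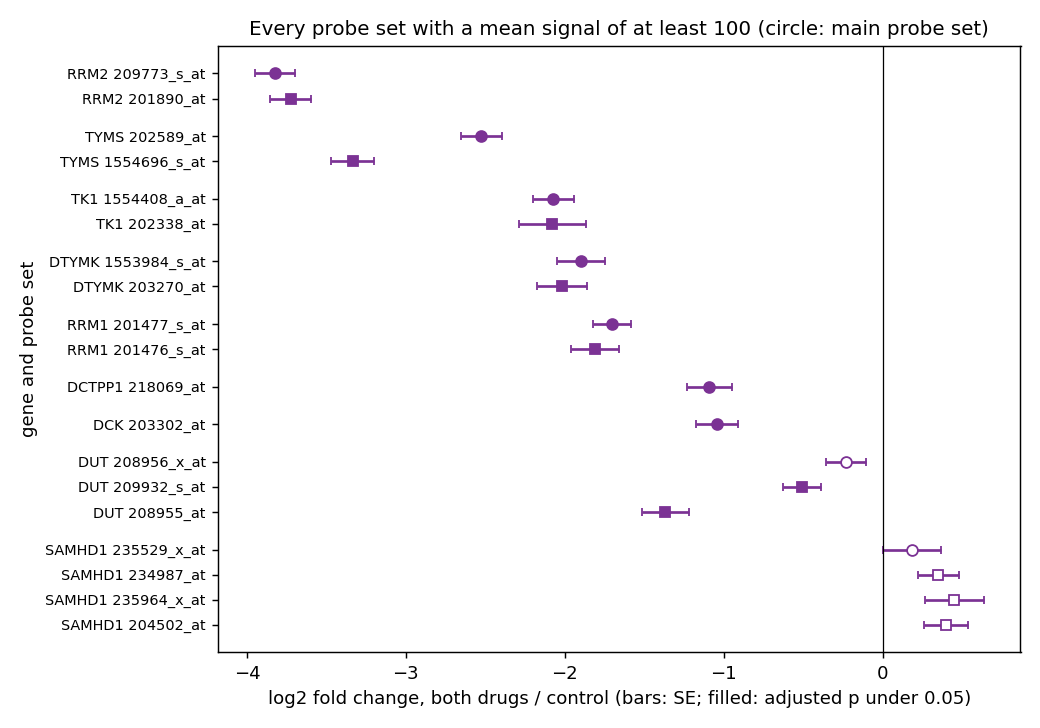
Log2 change with both drugs against control for every probe set of the 9 genes with a mean signal of at least 100, with SE bars; circles mark main probe sets and filled symbols an adjusted p under 0.05. Pairs for RRM2, TK1, DTYMK and RRM1 lie within each other's errors, whereas DUT's 3 probe sets run from −0.23 to −1.37.

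Around the 9 enzymes, other genes of nucleotide supply had smaller median changes. The counts of the lists stand beside 16.7% higher and 11.3% lower among all genes, so that the few rises in each list lie near the background. Among 19 measured enzymes of dNTP reduction, one-carbon supply and salvage, 4 rose and 6 fell with both drugs, with a median of −0.35. NME1, a nucleoside diphosphate kinase, fell by 0.72 ± 0.08 (adjusted p = 0.00044), whereas NME3, another kinase of that family, rose by 1.43 ± 0.17 (adjusted p = 0.00047). SHMT2, the mitochondrial serine hydroxymethyltransferase, rose by 0.71 ± 0.11, and MTHFD1, a cytosolic folate enzyme, fell by 0.90 ± 0.16. RRM2B, the p53-inducible small subunit that can replace RRM2, had signals of 252 to 278 with both drugs and 230.1 to 283 in control, and its change of 0.07 ± 0.14 did not pass (adjusted p = 0.785). TK2, the mitochondrial thymidine kinase, rose by 1.08 ± 0.21 (adjusted p = 0.00586). RRM2B and TK2 were singled out as counterparts of RRM2 and TK1 after their values were seen.

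Among 13 measured nucleotide hydrolases and sanitising enzymes, 3 rose and 7 fell with both drugs, with a median of −0.45. UPP1, uridine phosphorylase, fell by 1.55 ± 0.10, PNP, purine nucleoside phosphorylase, by 1.40 ± 0.16, NUDT1, which removes oxidised purine triphosphates, by 1.36 ± 0.14, and NUDT5 by 0.66 ± 0.09. The de novo purine and purine salvage list had 2 genes higher and 9 lower of 14, with a median of −0.54. GMPS, which makes GMP, fell by 1.02 ± 0.10, PRPS1, which makes the ribose donor of all nucleotides, by 0.99 ± 0.10, PAICS by 0.65 ± 0.08 and the salvage enzyme HPRT1 by 0.53 ± 0.07. Of 7 pyrimidine synthesis and uridine salvage genes, 1 was higher and 4 were lower, with a median of −0.38. CTPS1, the CTP synthase of dividing cells, fell by 1.27 ± 0.09, UMPS by 0.96 ± 0.14 and DHODH by 0.38 ± 0.09, while CTPS2 rose by 0.77 ± 0.15. CTPS2 was dim, with signals of 31.5 and 43.8 in control and 57.7 to 67.9 with both drugs.

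The S phase genes had a median change close to that of the 9 enzymes. All 26 measured S phase genes and E2F regulators fell with both drugs, with a median of −1.68, and 0 rose, also at an unadjusted p under 0.05. E2F8, a repressor of the E2F family, fell by 3.58 ± 0.11 (adjusted p = 5.54e-06), CCNE2, cyclin E2, by 3.08 ± 0.13, GINS1, part of the replicative helicase, by 2.33 ± 0.09 and CCNA2, cyclin A2, by 1.99 ± 0.09. With Wee1 inhibitor II alone 20 of the 26 fell, with a median of −0.62, and with 17-AAG alone 15 fell, with a median of −0.55. The interaction passed as negative for 9 and as positive for 1.

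Of 10 measured genes of reductase turnover and the replication checkpoint, 7 fell with both drugs and 0 rose, also at an unadjusted p under 0.05, with a median of −1.09. WEE1 itself, the gene of the kinase that Wee1 inhibitor II targets, had signals of 362 to 401 with both drugs, 867 to 999 with Wee1 inhibitor II, 737 to 849 with 17-AAG and 758 to 822 in control. It fell by 1.06 ± 0.11 with both drugs (adjusted p = 0.000213). CHEK1, the checkpoint kinase, which is also in the S phase list, fell by 2.11 ± 0.21, CDC20, an activator of the anaphase-promoting complex, by 1.34 ± 0.11, and SKP2, a ubiquitin ligase subunit, by 1.13 ± 0.12.

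**Figure D5:**
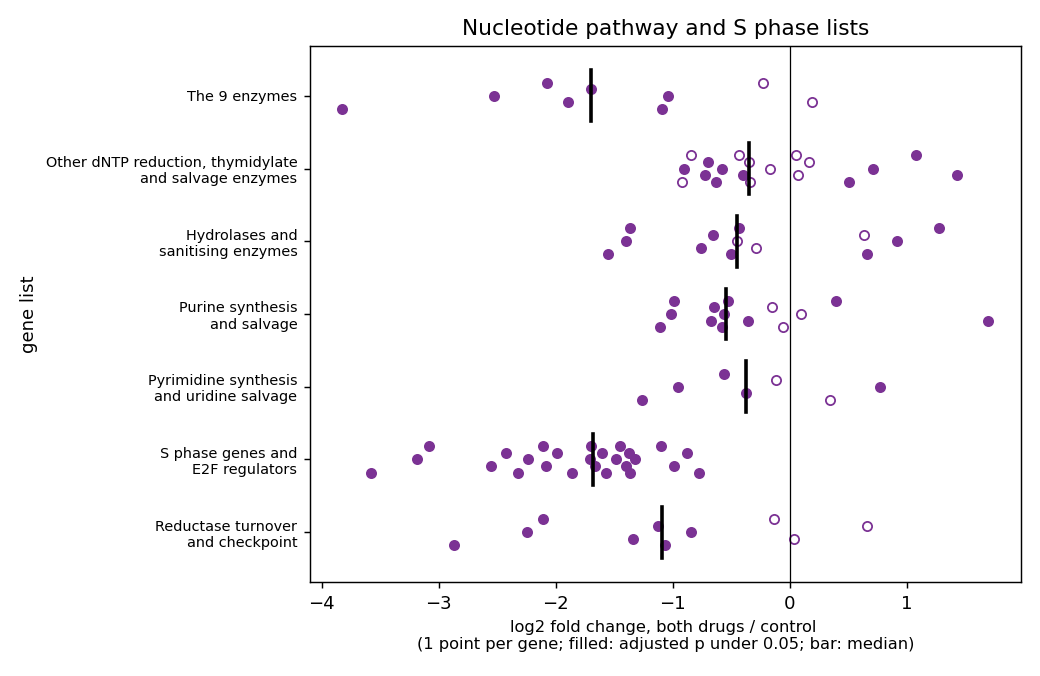
Log2 change with both drugs against control for each gene of the 9 enzymes and of 6 lists of related genes, with bars at the medians and filled points at an adjusted p under 0.05. The 9 enzymes (median −1.70) and the 26 S phase genes (median −1.68) lie lowest, and the purine list (median −0.54) and the other nucleotide lists straddle 0.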

How the data were processed

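RNA of 12 samples labelled PC3, from 100 ng each per the labels' protocols, was measured on Affymetrix 3-prime arrays. The authors deposited 1 intensity for each probe set on each array. Partek 6.5 and RMA are named, in no order, in the submitters' processing notes. The values are linear and were taken to log2 here with no further normalisation. Without the lowest and highest 2% of its values, each of the 12 arrays had a mean signal of 150.02, so the arrays stood on a common scale. A background step could shift dim probe sets most, and the number of arrays limits the precision. Control replicate 2, set aside for weak signal per the labels, was left out, leaving 11 arrays. Nothing says that replicates were separate cultures, so p-values reflect the spread among these samples alone, and that spread may be technical. No arrays held identical values.

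Of 54675 probe sets, 41091 carried 1 gene symbol, 1801 several and 11721 none, besides 62 array controls. Each gene was represented by its probe set of highest mean signal across the 11 arrays, which left 19775 genes, and 42 symbols had no gene ID match in the RefSeq table. All 9 enzymes were measured. With no filter on low values, limma 3.58.1 in R 4.3.3 was fitted with a mean per group on 7 residual degrees of freedom, with 1.12 prior degrees of freedom and 0.192 as the prior SD of log2 values. The p-values were adjusted over all genes by Benjamini and Hochberg, with a threshold of 0.05. Every drug group was compared with control, the drug pair with either drug alone, and the single drugs with each other, and the interaction was tested. Tables were handled with python 3.11.15 and pandas 2.3.3, and the fit was tested on simulated data. Promoter windows are from RefSeq, and all 9 genes had at least 1.

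The members and lists were chosen with earlier results of these data known. Named from each list were the 4 genes with the smallest p for both drugs against control and, in the closing section, those with an interaction past the threshold. The 3 genes with the nearest profiles are given for each enzyme. Alternatives were control replicate 2 included, the replicate number as a block, centring arrays on their medians, quantile normalisation, trended and robust empirical Bayes, a floor of 32, dropping the 40% of genes with the dimmest signal, testing each probe set separately, averaging the probe sets of a gene, a fit of only the arrays compared, and each array left out in turn.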

Additional observations from a re-analysis of the deposited data

Results flagged for a closer look

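The response to one drug differed with and without the other, by the test of the interaction in limma, for 5 of the 9 enzymes. The log2 interactions were −1.76 for TYMS, −1.59 for RRM2, −1.30 for TK1, −0.80 for RRM1 and −0.61 for DCK.

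The same test passed for 22 of 88 genes of the related lists, beside 11.8% of all genes. In the S phase list the interactions were −2.35 for E2F8, −1.23 for CDT1, −1.20 for E2F2, −1.17 for MCM7, −1.05 for CDC45, −1.03 for GINS1, −0.88 for CCNA2, −0.62 for POLA1 and −0.52 for RFC4, against 0.77 for CCNE1. Among reductase turnover and checkpoint genes they were −1.36 for WEE1 and −1.03 for CDC20, against 0.74 for SKP2. Among nucleotide enzymes they were −2.46 for DPYD, −1.01 for NUDT1, −0.98 for CTPS2 and −0.61 for SHMT2, against 0.84 for UCK1, 0.75 for UMPS, 0.51 for MBD4, 0.48 for PAICS and 0.45 for NME1. DPYD and CTPS2 were dim in control, with signals of at most 31.1 and 43.8.

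Control replicate 2, which entered a fit only as an alternative, held some signals well above those of the other control arrays. SAMHD1 had 776 there, against 340.1 and 343 on the other control arrays. EPCAM had 1096 there and HOXB13, a prostate transcription factor, 2087, against at most 26.2 and 11.3 on the other 11 arrays. Others lay far below, with 1.57 for CTNNA1, 2.67 for MLANA and 16.0 for TYRP1, against at least 2559, 2865 and 11119 on the 11 arrays, and 1583 for RRM2, against 4522 and 4814 on the other control arrays.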

How the results depend on the processing

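With both drugs against control, 6 to 8 of the 9 enzymes passed under all alternatives run, and 7 with any 1 array left out. The share of all genes that passed under each alternative is not given here. A lower count in this section can thus not be told from fewer calls across all genes. For both drugs, 6 to 9 passed against 17-AAG alone and 4 to 7 against Wee1 inhibitor II alone. Control replicate 2 differed from the other 11 arrays in many cell type markers, such as CTNNA1 (1.57 against at least 2559). With it included, 0 passed for Wee1 inhibitor II against control and 0 for 17-AAG against control. In that fit 0 passed for Wee1 inhibitor II against 17-AAG and 1 for the interaction. At an unadjusted p under 0.05 these counts were 1, 2, 0 and 5, in that order. RRM2 then stood at −0.57 for Wee1 inhibitor II and −0.62 for 17-AAG. For Wee1 inhibitor II against control, 4 passed with probe sets averaged per gene, 3 in a fit of only the arrays compared, and 4 to 7 with 1 array left out (4 without control replicate 3). For 17-AAG against control, 2 passed with arrays centred on their medians, 2 main probe sets with every probe set on its own (3 genes with any of their probe sets), 0 in a fit of only the arrays compared (4 at an unadjusted p under 0.05), and 1 to 4 with 1 array left out (1 without control replicate 3, and 2 without control replicate 1 or replicates 1 or 3 of 17-AAG). For Wee1 inhibitor II against 17-AAG, 0 passed with the replicate number as a block, 0 main probe sets with every probe set on its own (2 genes with any of their probe sets, SAMHD1 and DUT) and 0 in a fit of only the arrays compared, with 4, 3 and 3 at an unadjusted p under 0.05. In that comparison 1 passed with the mean of probe sets, 4 with centred arrays, 4 without the dimmest 40% of genes, 5 with trended and robust empirical Bayes, and 0 to 2 with 1 array left out. For the interaction, 3 passed with centred arrays and 4 to 5 with 1 array left out. DTYMK, both drugs against 17-AAG, turned to 0.11 with the mean of probe sets, which takes in its 3 dim ones. No pairing by replicate number was seen in the values, which cannot show how the samples were handled. Deviations of same-numbered arrays from their group means correlated at −0.137 to 0.0958 over 15 pairs. By these deviations 2 of 11 arrays were closest to their own number. With the replicate block, 7 enzymes passed for both drugs against control, 6 for Wee1 inhibitor II and 3 for 17-AAG. The median of all genes shifted by 0.12 with Wee1 inhibitor II and 0.11 with both drugs, while among genes with a mean signal of at least 100 these medians were 0.00 and 0.04. With probe sets averaged, which takes in a dim one, TYMS stood at −1.003 for 17-AAG against control and 0.29 for Wee1 inhibitor II against 17-AAG. The 2 control arrays limit every change against control.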

Other observations

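The genes with the nearest profiles over the 11 arrays were found for each of the 9 enzymes. Likeness was measured as the root mean square distance between log2 profiles centred on their means, among genes with a mean signal of at least 100. The distance is not scaled to how much a gene varied, so flat profiles give small values. The log2 range over the arrays was 0.56 for DUT and 0.98 for SAMHD1, against 3.90 for RRM2. The nearest to RRM2 were E2F8 at 0.24, SPC25 at 0.29 and FAM111B at 0.35. TYMS was nearest to NCAPG, PBK and ESPL1, each at 0.14, and RRM1 to KIF23 at 0.11, BRIP1 at 0.11 and DEPDC1B at 0.13. TK1 had the closest neighbours of the falling enzymes, PCLAF at 0.06, KIF4A at 0.08 and BIRC5 at 0.09. DTYMK was nearest to PCNA at 0.14, POLA2 at 0.14 and TMPO at 0.15, and DCK to AURKA, ARHGEF39 and TFB1M, each at 0.11. DCTPP1 stood nearest to PRPS1 at 0.09, TMEM97 at 0.10 and L3HYPDH at 0.10. DUT, whose main probe set varied least, had DBI at 0.05, QSOX2 at 0.06 and H2AZ1 at 0.07, and SAMHD1 had C15orf39 at 0.11, RIOX2 at 0.13 and GPATCH1 at 0.13.

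DPYD, which degrades uracil and thymine, had the widest interaction among the related lists. Its signals were 66.2 to 81.8 with both drugs, 149 to 207 with Wee1 inhibitor II, 55.0 to 92.6 with 17-AAG, and 30.7 and 31.1 in control. The arrays with both drugs thus overlapped those with 17-AAG alone and lay below those with Wee1 inhibitor II alone.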
